A study of Mus musculus with 63 samples.

Results

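The 9 genes described here mark the regenerative or fetal-like state of intestinal epithelium or are known targets of the coactivator YAP. They are Ctgf, Cyr61, Ankrd1, Amotl2, Ly6a, Clu, Anxa1, Anxa10 and Psca, found by gene symbol among the 54752 genes of the count tables. Psca, Anxa10 and Ctgf were chosen by their large changes at days 3 to 5 of the time course, so their values at those days are given as a description without a test. The other 6 were taken as known markers. RNA-Seq was performed on mouse small intestinal organoids and on intestinal epithelial cells (IECs) in which the Mediator kinases CDK8 and CDK19 were removed or mutated, and 57 libraries in 19 groups of 3 were used of the 63 samples in the series.

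All mice were C57BL/6. VillinCreERT2 is a recombinase that 4-OHT or tamoxifen activates in intestinal epithelium, where it deletes a floxed Cdk8. In the first experiment, 5 organoid lines were collected 7 days after 4-OHT: VillinCreERT2, C57BL/6 without the Cre, VillinCreERT2 with Cdk8 fl/fl (CDK8 iIEC-KO), Cdk8 fl/fl with Cdk19 ko/ko but no Cre (Cdk19-/-), and VillinCreERT2 with both Cdk8 fl/fl and Cdk19 ko/ko (CDK8 iIEC-KO/Cdk19-/-). Each genotype was 1 organoid line there, so genotype and line cannot be told apart. In the time course, another line with the Cre, Cdk8 fl/fl and Cdk19 ko/ko, numbered differently in the labels, received 4-OHT (100 nM) or EtOH (0.001%) and was collected at 3, 5, 7 and 10 days. The EtOH controls therefore also lacked CDK19, and because no VillinCreERT2 line with EtOH was sequenced, effects of 4-OHT or of the active Cre and of the loss of CDK8 cannot be told apart there. The line of the time course was also collected at day 10 in Wnt3-conditioned medium (Wnt3-CM), with EtOH or 4-OHT. Organoids with the Cre, Cdk8 fl/fl and Cdk19 ko/D173A, whose remaining CDK19 carries the kinase-dead D173A substitution, were collected at day 7 with EtOH or 4-OHT. Their columns bear no genotype in the count table and were assigned by elimination. IECs came from VillinCreERT2 and CDK8 iIEC-KO/Cdk19-/- mice given tamoxifen (80 mg/kg on 5 days), with 14 days as the labelled time. The labels speak of triplicates of organoids and do not say whether these were separate cultures, so p-values measure the spread between libraries, which may be technical.

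YAP and its partner TAZ are restrained by the kinases of the Hippo pathway. When released, they enter the nucleus, bind TEAD factors and switch on genes such as Ctgf, Cyr61, Ankrd1 and Amotl2. After injury, the intestinal epithelium passes through a YAP-dependent state that resembles fetal epithelium, marked by Ly6a (Sca-1), Clu and Anxa1. Ctgf and Cyr61 encode secreted matricellular proteins of the CCN family, Ankrd1 a nuclear ankyrin repeat protein, and Amotl2 an angiomotin that binds YAP and restrains it. Ly6a and Psca encode small GPI-anchored surface proteins of the LY6 family, and Clu a secreted chaperone. Anxa1 encodes a calcium-dependent phospholipid-binding protein of the annexin family, to which Anxa10 also belongs. Psca and Anxa10 are known from the stomach epithelium.

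On GRCm38 with the GENCODE vM21 annotation all 9 are protein-coding. Ctgf lies on chromosome 10 (chr10:24595442-24598683), Cyr61 on chromosome 3 (chr3:145646976-145649981), Amotl2 on chromosome 9 (chr9:102716672-102733418), Clu on chromosome 14 (chr14:65968483-65981547) and Anxa10 on chromosome 8 (chr8:62057042-62123150). Ankrd1 (chr19:36111961-36120099) and Anxa1 (chr19:20373428-20390944) share chromosome 19. Ly6a (chr15:74994877-74998031) and Psca (chr15:74714839-74717069) share chromosome 15, with 277.808 kb between them in the cluster of LY6 genes. Ly6a has close paralogs in that cluster, and how reads matching several genes were counted is not given in the sources used here, so its counts may include reads of a paralog.

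Promoters are shown because several of these genes are named for a shared factor, so that a reader can see what the sequences just before them hold in common. The RefSeq windows (GRCm38.p6, 250 bases before to 50 after the start) matched 5 of the 9 genes, and Ctgf, Ly6a, Clu and Psca were not matched. The capitals mark the core letters of the TEAD motif (CATTCC, or GGAATG on the other strand) or of the AP-1 motif (TGANTCA), searched on both strands. The 4 windows shown are chr3:145649936-145650235 for Cyr61, minus strand, chr9:102717554-102717853 for Amotl2, plus strand, chr19:20390622-20390921 for Anxa1, minus strand, and chr8:62123144-62123443 for Anxa10, minus strand, each written 5′ to 3′ along its gene.
Cyr61: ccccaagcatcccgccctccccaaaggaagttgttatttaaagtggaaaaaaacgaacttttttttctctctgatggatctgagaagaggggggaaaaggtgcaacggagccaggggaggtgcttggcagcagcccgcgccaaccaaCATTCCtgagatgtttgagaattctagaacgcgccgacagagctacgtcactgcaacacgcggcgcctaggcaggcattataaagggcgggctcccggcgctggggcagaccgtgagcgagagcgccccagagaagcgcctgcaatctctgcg
Amotl2: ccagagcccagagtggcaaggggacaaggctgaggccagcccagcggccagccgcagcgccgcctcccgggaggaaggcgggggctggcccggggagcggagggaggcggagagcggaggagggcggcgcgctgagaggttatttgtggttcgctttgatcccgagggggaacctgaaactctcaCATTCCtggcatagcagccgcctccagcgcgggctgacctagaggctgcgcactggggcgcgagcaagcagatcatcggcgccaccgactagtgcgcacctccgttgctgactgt
Anxa1: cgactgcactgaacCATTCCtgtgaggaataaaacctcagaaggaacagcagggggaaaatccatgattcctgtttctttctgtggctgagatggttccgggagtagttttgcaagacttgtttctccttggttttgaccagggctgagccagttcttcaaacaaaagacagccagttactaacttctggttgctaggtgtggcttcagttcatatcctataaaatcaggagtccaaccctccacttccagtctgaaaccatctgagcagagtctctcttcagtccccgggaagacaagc
Anxa10: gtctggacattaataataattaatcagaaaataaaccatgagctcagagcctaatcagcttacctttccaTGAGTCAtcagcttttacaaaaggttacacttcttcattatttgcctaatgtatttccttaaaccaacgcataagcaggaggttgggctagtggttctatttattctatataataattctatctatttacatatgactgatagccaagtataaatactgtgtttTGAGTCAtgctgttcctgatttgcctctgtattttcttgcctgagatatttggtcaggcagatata
The TEAD letters began 103 bases before the start of Cyr61, 65 before that of Amotl2 and 236 before that of Anxa1, and the Ankrd1 window held them 2 times. The Anxa10 window held none and instead held TGAGTCA 2 times, starting 180 and 16 bases before its start. Of 32851 RefSeq promoter windows of this length, 14.66% held the TEAD letters and 7.808% the AP-1 letters. A match to such short letters is a description of the sequence and not a site.

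Total counts ranged from 15485959 to 32909565 per library, and no 2 libraries of a group were identical. Levels are CPM, counts scaled to a common library size with TMM factors, and a gene was called when edgeR's quasi-likelihood test gave a Benjamini-Hochberg adjusted p under 0.05 over all genes tested and the fold change passed 1.5. Counts over the whole gene say nothing of a deleted exon or a point mutation, and Cdk8 stayed between 36.9 and 80.6 CPM and Cdk19 between 16.6 and 58.4 CPM in all 19 group means. Organoids showed the 7 epithelial markers and almost no immune RNA, with at most 4.90 CPM summed over 8 immune genes. IECs held RNA of other cells, as given with their results. In bulk samples, fewer cells of a type and less RNA per cell cannot be told apart.

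Ankrd1 was close to absent everywhere, with 0 to 2 counts per organoid library and 0 to 7 per IEC library, and was tested in no comparison. Ctgf passed the filter on low counts in the time course and in Wnt3-CM, and Psca in the time course, in Wnt3-CM and in the Cdk19 D173A organoids. Both also passed it where responses were compared across tables. The other 6 genes passed it in every comparison, and were tested there except Anxa10 where days 3 or 5 enter, since it was chosen on those values.

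The question of the time course was when genes respond after the kinases are lost. At day 3, 4-OHT organoids held more Cyr61, Ly6a and Anxa1 and less Clu than EtOH organoids. Anxa1 was the largest of these changes. It measured 5.99, 9.24 and 6.81 CPM with EtOH and 65.3, 55.2 and 48.9 CPM with 4-OHT, a log2 difference of 2.94 (SE 0.25, n = 3 and 3, adjusted p = 2.73e-08 in edgeR). Every 4-OHT library lay far above the EtOH libraries. Ly6a was 20.6, 29.9 and 22.3 CPM with EtOH and 78.1, 71.5 and 63.3 CPM with 4-OHT, a log2 difference of 1.55 (SE 0.29, adjusted p = 0.000471 in edgeR). Cyr61 was 6.05, 8.18 and 7.40 CPM with EtOH and 18.1, 18.7 and 17.8 CPM with 4-OHT, a log2 difference of 1.33 (SE 0.13, adjusted p = 3.85e-09 in edgeR). Neither gene overlapped between the treatments. Clu went the other way, from 21.9, 32.4 and 18.3 CPM with EtOH to 12.4, 9.59 and 9.51 CPM with 4-OHT, and fell by 1.21 on the log2 scale (SE 0.26, adjusted p = 0.00160 in edgeR). Amotl2, which encodes the YAP-binding angiomotin, measured 11.4, 13.9 and 11.3 CPM with EtOH and 12.7, 13.7 and 13.7 CPM with 4-OHT, and its ranges overlapped. Thus 4 of the 5 members tested at this day were called, against 12.4% of the 15447 genes tested.

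The 3 genes picked for their early changes stood as follows at day 3, without a test. Ctgf measured 0.270, 0.212 and 0.160 CPM with EtOH, which is 5, 4 and 3 counts, and 2.64, 4.72 and 3.73 CPM with 4-OHT, a log2 difference of 4.07 (SE 0.43). Anxa10 was 2.00, 2.71 and 1.86 CPM with EtOH and 8.88, 6.06 and 6.21 CPM with 4-OHT, a log2 difference of 1.68 (SE 0.21). Psca was 0.162, 1.01 and 0.319 CPM with EtOH and 2.15, 1.81 and 0.717 CPM with 4-OHT, and the lowest 4-OHT library lay below the highest EtOH library. Per exon length, Ly6a was the most abundant member in both treatments, with mean levels of 20.1 RPKM with EtOH and 58.9 RPKM with 4-OHT, followed after 4-OHT by Anxa1 (19.4 RPKM) and Cyr61 (9.01 RPKM).

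**Figure D1:**
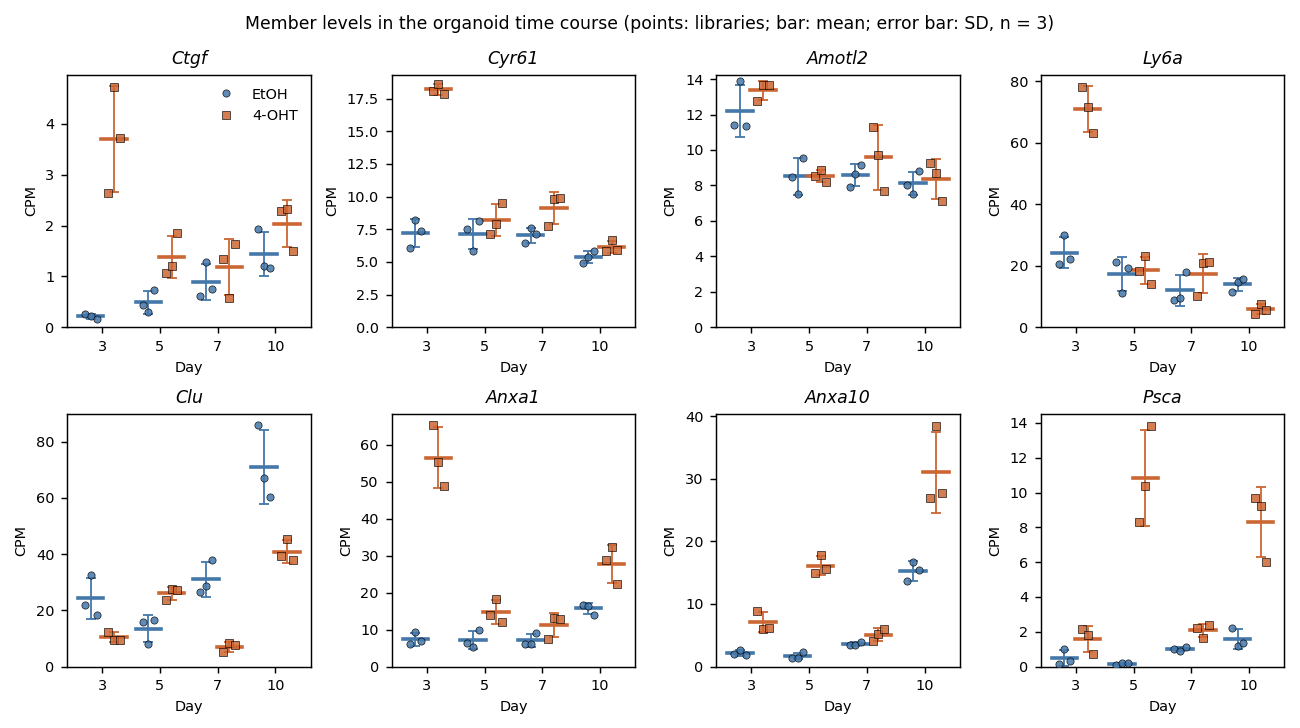
Levels of 8 members in the time course, in CPM on a linear axis that starts at 0 and differs between panels, against the day of collection. Points are the 3 libraries of a group, EtOH in blue and 4-OHT in orange, horizontal bars are the means and error bars the SD; Anxa1, Ly6a and Cyr61 stand apart at day 3 (for Anxa1, 48.9 to 65.3 against 5.99 to 9.24 CPM), while Psca stands apart most at day 5.

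The pattern at day 5 was another one. There, Cyr61 was 7.53, 5.87 and 8.09 CPM with EtOH and 7.10, 7.93 and 9.50 CPM with 4-OHT, and Ly6a was 21.3, 11.0 and 19.4 CPM against 18.2, 23.1 and 14.1 CPM. Both genes overlapped between the treatments. Anxa1 was still higher, with 6.50, 5.31 and 9.86 CPM with EtOH and 13.8, 18.3 and 12.0 CPM with 4-OHT, a log2 difference of 1.02 (SE 0.26, adjusted p = 0.00461 in edgeR). Clu was now higher with 4-OHT, at 23.5, 27.4 and 27.3 CPM against 15.7, 7.85 and 16.7 CPM, a log2 difference of 0.96 (SE 0.26, adjusted p = 0.00694 in edgeR). These were the 2 called of the 5 members tested, against 13.2% of all genes. Among the picked genes, Psca had 2, 4 and 4 counts in the EtOH libraries and 156, 197 and 262 in the 4-OHT libraries, that is 0.108, 0.202 and 0.196 CPM against 8.33, 10.3 and 13.8 CPM. Its log2 difference was 5.94 (SE 0.45), and Psca was second only to Ly6a among the members in mean RPKM with 4-OHT (12.6 and 15.3 RPKM). Anxa10 was 1.41, 1.37 and 2.31 CPM with EtOH and 14.9, 17.8 and 15.6 CPM with 4-OHT, a log2 difference of 3.24 (SE 0.20). Ctgf was 0.433, 0.304 and 0.736 CPM with EtOH and 1.07, 1.21 and 1.85 CPM with 4-OHT, a log2 difference of 1.47 (SE 0.41).

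The responses at these days were compared directly. From day 3 to day 5 the response to 4-OHT fell by 1.14 for Cyr61 (SE 0.19, adjusted p = 3.44e-05), by 1.45 for Ly6a (SE 0.43, adjusted p = 0.0137) and by 1.92 for Anxa1 (SE 0.36, adjusted p = 0.000406), all on the log2 scale and in edgeR. For Clu it rose by 2.17 (SE 0.37, adjusted p = 0.000194 in edgeR), from below to above the controls. These are 4 of 5 members tested, against 20.2% of all genes.

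At day 7, Clu was far lower with 4-OHT and Psca was higher. Clu measured 26.4, 28.5 and 38.0 CPM with EtOH and 5.07, 8.24 and 7.79 CPM with 4-OHT, and fell by 2.14 on the log2 scale (SE 0.28, adjusted p = 5.62e-06 in edgeR). Its direction had thus turned once more, and the response at day 7 lay 3.10 below that at day 5 on the log2 scale, counted as -3.10 (adjusted p = 4.69e-05 in edgeR), when 8.81% of all genes changed their response. EtOH replicate 2 of day 7 held 47.0 CPM summed over the 9 mesenchyme markers, against 5.14 and 5.69 CPM in the other two, and without it the Clu difference was -2.20. Psca was 1.01, 0.890 and 1.12 CPM with EtOH and 2.21, 1.65 and 2.39 CPM with 4-OHT, a log2 difference of 1.04 (SE 0.39, adjusted p = 0.0323 in edgeR). The 3 libraries with 4-OHT lay above the 3 with EtOH, but 5 of the 6 fits without 1 library lost the call, with an adjusted p of up to 0.103. With Clu and Psca, the latter a picked gene, 2 of the 8 members tested were called, against 18.3% of all genes. Anxa10 was 3.38, 3.41 and 3.91 CPM with EtOH and 4.10, 5.20 and 6.04 CPM with 4-OHT. Anxa1 was 6.20, 5.99 and 9.19 CPM with EtOH and 7.39, 13.2 and 12.8 CPM with 4-OHT, a log2 difference of 0.65 with an adjusted p of 0.0556 in edgeR, and it was called by DESeq2 (0.0346), with at least 10 counts in every library (0.0479) and with only these 2 groups fitted (0.0454). Ly6a was 8.93, 9.35 and 17.9 CPM with EtOH and 10.1, 20.9 and 21.3 CPM with 4-OHT, a log2 difference of 0.54 with an adjusted p of 0.199 in edgeR. Without EtOH replicate 3, the library with the highest levels of Anxa1, Anxa10 and Ly6a in its group, the 3 genes were called at log2 differences of 0.87, 0.59 and 0.93, and without 4-OHT replicate 1 Anxa1 and Anxa10 were called at 0.86 and 0.65. Cyr61, Amotl2 and Ctgf were not called, and Ctgf measured 0.605, 1.29 and 0.762 CPM with EtOH and 1.35, 0.566 and 1.64 CPM with 4-OHT.

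At day 10, Psca, Anxa10 and, moderately, Anxa1 were higher with 4-OHT, and Ly6a and Clu were lower. Psca was 2.23, 1.16 and 1.37 CPM with EtOH and 9.70, 9.23 and 5.98 CPM with 4-OHT, a log2 difference of 2.38 (SE 0.31, adjusted p = 1.08e-06 in edgeR). Anxa10 was 13.6, 16.7 and 15.5 CPM with EtOH and 26.9, 38.5 and 27.8 CPM with 4-OHT, a log2 difference of 1.03 (SE 0.15, adjusted p = 2.18e-06 in edgeR). Anxa1 was 16.8, 16.4 and 14.0 CPM with EtOH and 28.9, 32.3 and 22.2 CPM with 4-OHT, a log2 difference of 0.82 (SE 0.23, adjusted p = 0.00684 in edgeR). None of these overlapped between treatments. Ly6a was 11.4, 14.6 and 15.7 CPM with EtOH and 4.37, 7.49 and 5.62 CPM with 4-OHT, and fell by 1.25 on the log2 scale (SE 0.36, adjusted p = 0.00960 in edgeR). Clu was 85.9, 66.9 and 60.2 CPM with EtOH and 39.4, 45.4 and 38.0 CPM with 4-OHT, and fell by 0.80 (SE 0.23, adjusted p = 0.00841 in edgeR). These groups did not overlap either. Psca and Anxa10 were picked for changes in this line at days 3 to 5, so the next count is partly set by that choice. In all, 5 of 8 members were called at day 10, against 15.8% of all genes. The canonical YAP targets were not among them, since Ctgf measured 1.94, 1.21 and 1.17 CPM against 2.29, 2.32 and 1.5 CPM and Cyr61 4.89, 5.41 and 5.83 CPM against 5.81, 6.65 and 5.88 CPM. Compared with day 7, the response of Ly6a was lower by a log2 value of -1.79 (adjusted p = 0.0185 in edgeR) and that of Clu higher by 1.34 (adjusted p = 0.0159 in edgeR), 2 of 8 members against 6.41% of all genes. The Ly6a value was -1.6 with an adjusted p of 0.0501 without EtOH replicate 1 of day 7, and -1.63 with an adjusted p of 0.0565 without 4-OHT replicate 2 of day 7. The change in the Psca response, 1.33, had an adjusted p of 0.0789 in edgeR. It was called by DESeq2 (1.32, adjusted p = 0.0342), with no filter on low counts (adjusted p = 0.00495) and with only the groups compared (1.35, adjusted p = 0.0278), and in edgeR also without EtOH replicate 1 of day 10 (1.66) or without 4-OHT replicate 3 of day 10 (1.52).

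The EtOH cultures changed with time too, which sets the level each response starts from. From day 7 to day 10, Anxa10 rose by 2.09 (adjusted p = 1.23e-10), Clu by 1.20 (adjusted p = 0.000277) and Anxa1 by 1.14 (adjusted p = 0.00101 in edgeR), all on the log2 scale, when 23.3% of all genes changed. Clu fell by 0.85 from day 3 to day 5 (adjusted p = 0.0160 in edgeR, 12.0% of all genes called) and rose by 1.21 from day 5 to day 7 (adjusted p = 0.0251 in edgeR, 0.570% of all genes called). The first of these was lost without EtOH replicate 2 of day 3 (-0.58, adjusted p = 0.111) or EtOH replicate 2 of day 5 (-0.58, adjusted p = 0.0808), and the second was lost in 5 of the 6 fits without 1 library. With only the 2 groups fitted, neither was called (adjusted p = 0.0991 and 0.148). Whether days were processed together is not given in the labels, so day and processing cannot be told apart in these 3 comparisons.

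**Figure D2:**
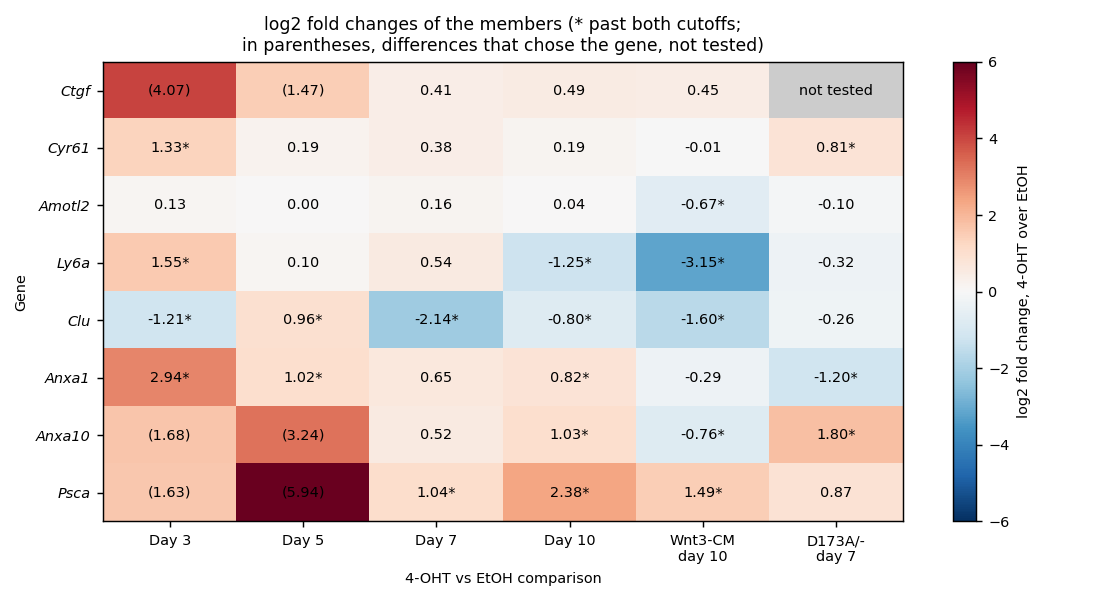
Log2 fold changes of 8 members (rows) in the 6 comparisons of 4-OHT with EtOH (columns); colour and number give the log2 fold change, an asterisk marks a value past both cutoffs, values in parentheses chose the gene and have no test, and the grey cell was not tested. The tested Anxa10 differences run from -0.76 in Wnt3-CM to 1.80 in the D173A/- line, and those of Clu change sign between day 3 (-1.21) and day 5 (0.96).

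Related genes were followed in lists, to be read against the share of all genes called. At day 3, when that share was 12.4%, of 11 other YAP targets tested 6 were higher and 0 lower, among them F3, tissue factor, with a log2 difference of 1.31, Asap1 with 0.77 and Myof with 1.54. The list median was 0.64, against -0.022 over all genes. Of the 17 Hippo pathway genes 2 were called, a share near that of all genes, the TEAD factors Tead4 (1.12) and Tead2 (1.24), both higher. Other fetal-like genes were higher in 7 of 11 and lower in 0, among them Sprr1a (2.79), a cornified envelope protein, and Tnfrsf12a (1.14), the TWEAK receptor. Immediate early genes were called in 7 of 12 and did not all go one way, since Fos rose (0.98) while Egr1 fell by 1.30 on the log2 scale. Within the gene families, Anxa3 (2.43) and Anxa5 (1.57) rose with Anxa1 while Anxa13 fell by 0.77, and 5 of 7 LY6 genes were higher, with 2010109I03Rik at 3.95. Summed endothelial markers were 13.3 to 15.3 CPM with 4-OHT and 5.72 to 6.71 CPM with EtOH at this day, which came from Esam, while Cdh5 was at 0 in all 6 libraries. Summed mesenchyme markers were 2.44 to 4.44 CPM with 4-OHT and 10.9 to 13.1 CPM with EtOH. The part of either in the members' values was not tested.

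At day 5, when 13.2% of all genes were called, 2 of 11 YAP targets were, F3 (0.59) and Lats2 (0.83), and 0 of 17 genes of the Hippo list. Lats2 encodes a kinase of the Hippo pathway but was counted here among the YAP targets. Fetal-like genes were higher in 4 of 11 and lower in 1, with Msln, mesothelin, at 3.66, Il33, an alarmin cytokine, at 2.22 and Ecm1 at 1.89. Beside Psca and Anxa10, 4 of 7 other stomach genes were higher, Vsig1 (1.93), Tff1 (1.68), Tff2 (1.00) and Gkn3 (0.89), which were between 0.724 and 15.0 CPM on average with 4-OHT. From day 3 to day 5 the response itself changed in 2 of 11 YAP targets, both downward, and in 6 of 11 fetal-like genes, 3 upward and 3 downward, when 20.2% of all genes changed theirs. At day 10, with 15.8% of all genes called, 1 YAP target was higher and 1 lower of 11, Lats2 (0.73) and Rbms3 (-1.67). Fetal-like genes then split into 2 higher, Il33 (1.57) and S100a6 (0.65), and 2 lower, Sprr1a (-1.43) and Msln (-0.77). Interferon-stimulated genes, not part of the YAP programme, were higher in 4 of 7 at day 3 and in 5 of 7 at each later day, with Irf7 at 0.92, 1.27, 1.81 and 1.19 from day 3 to day 10.

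In Wnt3-CM, where Wnt ligand is supplied from outside, Ly6a, Clu, Anxa10 and Amotl2 fell with 4-OHT and Psca was higher. Ly6a measured 75.1, 136 and 114 CPM with EtOH and 11.7, 11.3 and 13.7 CPM with 4-OHT, and fell by 3.15 on the log2 scale (SE 0.28, n = 3 and 3, adjusted p = 0.000637 in edgeR). Clu measured 127, 126 and 135 CPM with EtOH and 37.8, 41.4 and 48.8 CPM with 4-OHT, and fell by 1.6 (SE 0.08, adjusted p = 2.28e-12 in edgeR). Both sets of libraries were far apart. Anxa10, higher with 4-OHT in standard medium, fell here by 0.76 (SE 0.09, adjusted p = 1.32e-06 in edgeR), from 76.8, 94.8 and 95.8 CPM to 47.4, 53.5 and 57.2 CPM. Amotl2 fell by 0.67 (SE 0.10, adjusted p = 1.70e-05 in edgeR), from 15.4, 17.5 and 16.3 CPM to 10.9, 9.62 and 10.3 CPM. Psca alone of the called members was higher, with 4.63, 2.89 and 3.11 CPM with EtOH and 11.5, 9.09 and 9.39 CPM with 4-OHT, a log2 difference of 1.49 (SE 0.17, adjusted p = 2.89e-07 in edgeR). Thus 5 of 8 members were called, against 16.9% of 13745 genes. Of these 5, Anxa10 and Psca were picked for early changes in the same line. Anxa1 was 41.6, 59.9 and 55.0 CPM with EtOH and 42.0, 37.6 and 48.5 CPM with 4-OHT, and Cyr61 was 7.99, 11.6 and 9.38 CPM against 8.84, 8.46 and 11.5 CPM, both overlapping. Ctgf was 2.79, 2.73 and 1.79 CPM with EtOH and 3.43, 2.58 and 3.97 CPM with 4-OHT, and it was called as higher (0.61, adjusted p = 0.0379) only without 4-OHT replicate 2.

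**Figure D3:**
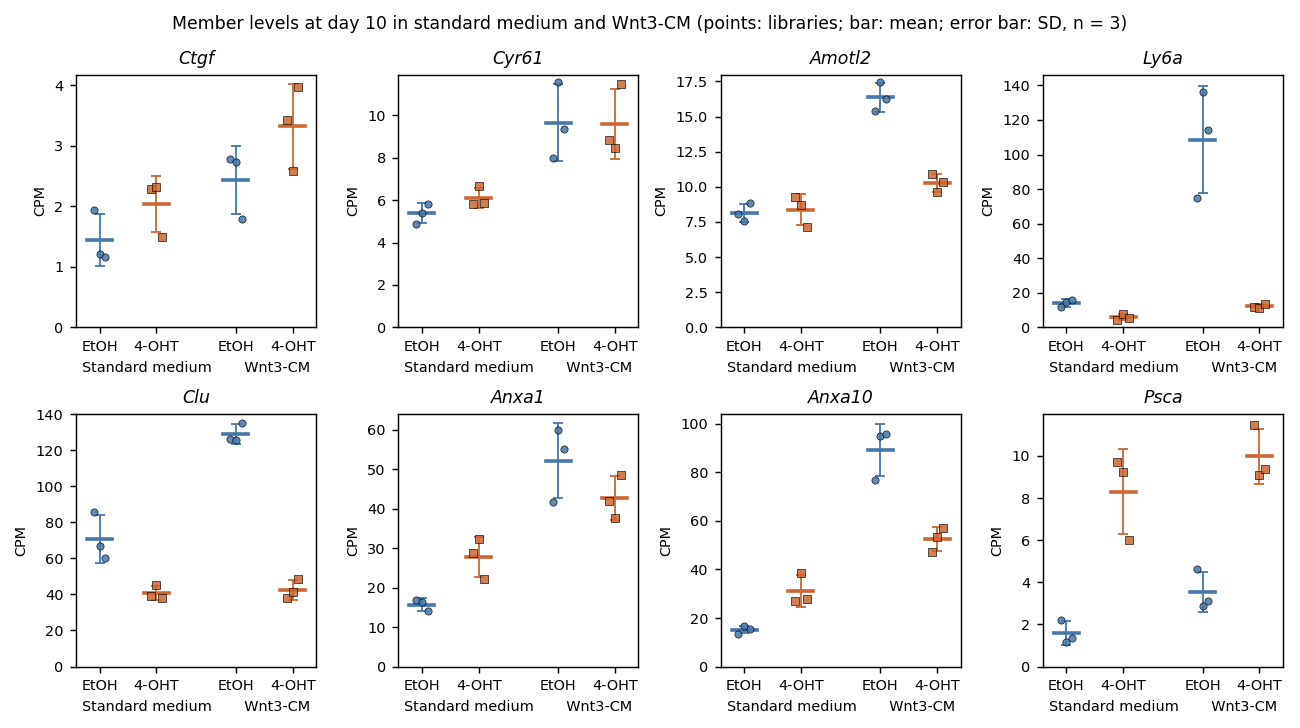
Levels of the members at day 10 with EtOH and 4-OHT, in standard medium and in Wnt3-CM, in CPM on a linear axis that starts at 0 and differs between panels. Points are single libraries, bars the means and error bars the SD of 3; Ly6a in Wnt3-CM lies at 75.1 to 136 CPM with EtOH and at 11.3 to 13.7 CPM with 4-OHT, while Psca is higher with 4-OHT in both media.

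The media came from separate tables, so their levels are set side by side and were not tested. Mean levels of Ly6a with EtOH were 13.9 CPM in standard medium and 109 CPM in Wnt3-CM, and those of Anxa10 15.3 and 89.1 CPM. In Wnt3-CM with EtOH, Ly6a led the members per exon length with 90.1 RPKM, followed by Anxa10 (38.9 RPKM) and Clu (37.6 RPKM). The responses to 4-OHT at day 10 could be compared in a joint fit, in which medium and table cannot be told apart. They were lower in Wnt3-CM for Ly6a by a log2 value of -1.90 (adjusted p = 0.00456), for Anxa10 by -1.78 (adjusted p = 5.71e-06) and for Anxa1 by -1.11 (adjusted p = 0.00244 in edgeR). Clu, which fell in both media, responded more strongly downward (-0.80, adjusted p = 0.00258 in edgeR). The Amotl2 response was lower by -0.71 (adjusted p = 0.00207 in edgeR), after a difference of 0.040 that was not called in standard medium. Thus 5 of 8 members, the picked Anxa10 among them, differed in their response, against 13.3% of 14337 genes. The Psca response differed by -0.88 with an adjusted p of 0.0599 in edgeR. DESeq2 (-0.89, adjusted p = 0.0301) and edgeR with no filter on low counts (-0.87, adjusted p = 0.00354) called it, as did a block on the column numbers (adjusted p = 0.00468) and 4 of the 12 fits without 1 library. These were the fits without EtOH replicate 2 or 4-OHT replicate 1 of Wnt3-CM (-1.01 and -0.99), and without EtOH replicate 1 or 4-OHT replicate 3 of standard medium (-1.21 and -1.07).

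In Wnt3-CM, with 16.9% of all genes called, of 10 other YAP targets 6 were lower and 0 higher, with F3 at -2.10 and Asap1 at -1.78. In standard medium both were higher with 4-OHT at day 3 but not called at day 10, the day of the Wnt3-CM libraries. Of 11 fetal-like genes 8 were lower and 0 higher, with Il1rn, the interleukin-1 receptor antagonist, at -2.70, Tnfrsf12a at -1.49 and Krt7 at -1.20. The list medians were -1.08 and -1.20, against 0.00073 over all genes tested. In the families, 6 of 7 LY6 genes and 5 of 10 annexins were lower and 0 higher, with Ly6d at -2.41 and Anxa3 at -1.06. Immediate early genes were lower in 10 of 12, with Egr1 at -2.88 and Fos at -1.32. Of 7 stomach genes beside Psca and Anxa10, 4 were higher and 0 lower, with Gkn3 at 1.40 and Vsig1 at 1.6. These 4 rose as Psca did, while Anxa10 fell. The 7 epithelial markers summed to 10910 to 11364 CPM with EtOH and to 8188 to 8848 CPM with 4-OHT in this medium. In standard medium they moved the other way, from 6533 to 6725 CPM with EtOH to 7169 to 7864 CPM with 4-OHT at day 10, and from 5640 to 5973 CPM to 7096 to 7532 CPM at day 7. The part of these shifts in the members' values was not tested.

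In the Cdk19 D173A organoids both treatments carried kinase-dead CDK19 as the remaining CDK19, and 4-OHT, which deletes Cdk8, was compared with EtOH. Anxa10 was 4.68, 7.26 and 5.53 CPM with EtOH and 16.3, 21.8 and 22.7 CPM with 4-OHT, a log2 difference of 1.80 (SE 0.18, n = 3 and 3, adjusted p = 0.000113 in edgeR). Cyr61 was 2.69, 2.62 and 3.12 CPM with EtOH and 3.66, 5.31 and 5.84 CPM with 4-OHT, a log2 difference of 0.81 (SE 0.20, adjusted p = 0.0121 in edgeR). All 4-OHT libraries lay above the EtOH libraries for both genes. Without EtOH replicate 2 the Cyr61 difference was 0.74 (adjusted p = 0.0565), and without 4-OHT replicate 2 it was 0.75 (adjusted p = 0.0510). Anxa1 fell by 1.20 on the log2 scale (SE 0.20, adjusted p = 0.00150 in edgeR), from 4.06, 6.04 and 4.95 CPM to 1.87, 2.55 and 2.10 CPM. The remaining members were not called, so that 3 of 7 tested were, against 12.3% of all genes. Clu was 7.27, 10.0 and 11.4 CPM with EtOH and 4.70, 6.07 and 13.3 CPM with 4-OHT, and its 4-OHT replicate 3 lay above all EtOH libraries. Without that library Clu was called as lower (-0.83, adjusted p = 0.0217). Psca was 0.454, 0.398 and 0.289 CPM with EtOH and 0.968, 0.503 and 0.617 CPM with 4-OHT, a log2 difference of 0.87 that was not called (adjusted p = 0.110 in edgeR). Ctgf, not tested here, had 7, 6 and 5 counts with EtOH and 14, 10 and 11 with 4-OHT. The 8 immune markers summed to 1.33 to 2.69 CPM with EtOH and to 3.71 to 4.90 CPM with 4-OHT, and their part in these results was not tested. The 15 stomach genes of the list summed to 9.65 to 13.7 CPM with EtOH and to 9.82 to 13.8 CPM with 4-OHT.

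Set against the day 7 response of the line without CDK19, that of the Cdk19 D173A organoids was higher for Anxa10 by a log2 value of 1.27 (adjusted p = 0.00311), lower for Anxa1 by -1.85 (adjusted p = 0.00134) and higher for Clu by 1.86 (adjusted p = 0.0304 in edgeR). Every member but Ankrd1 was tested, and these were 3 of them, against 11.1% of all genes. The Ctgf value was not called and ran from 0.24 to 0.91 with 1 library left out (adjusted p of 0.362 or more in edgeR). The Ly6a value, -0.86, was not called (adjusted p = 0.271 in edgeR) but was with no filter on low counts (adjusted p = 0.0111) and with a block on the column numbers (adjusted p = 0.0342). The Clu value lost its call without any of 7 single libraries (EtOH replicates 1 or 2 of the D173A organoids, and EtOH replicates 2 or 3 or any 4-OHT replicate of the other line), at 1.66 to 1.99. Line and table cannot be told apart in this comparison. Among other genes in the D173A organoids, where 12.3% of all genes were called, F3 (0.59) was higher and Ptpn14 (-1.21) lower of 11 YAP targets, Il33 (1.28) was higher and Msln (-1.17) and S100a6 (-1.17) lower of 11 fetal-like genes, and Anxa3 (0.76) and Anxa5 (0.71) were higher of 9 annexins.

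The 5 organoid lines of the first experiment, all collected 7 days after 4-OHT, show the single losses beside the joint one. Anxa10 was highest in CDK8 iIEC-KO/Cdk19-/- organoids, with 22.8, 21.7 and 27.8 CPM. It measured 9.21, 7.24 and 15.4 CPM in VillinCreERT2, 11.5, 9.57 and 8.87 CPM in CDK8 iIEC-KO, 4.52, 4.07 and 3.47 CPM in Cdk19-/- and 3.87, 3.86 and 2.74 CPM in C57BL/6 organoids. Only the joint loss stood above every other library, and VillinCreERT2 and CDK8 iIEC-KO overlapped, as did Cdk19-/- and C57BL/6. CDK8 iIEC-KO/Cdk19-/- exceeded VillinCreERT2 by 1.19 on the log2 scale (SE 0.21, adjusted p = 0.000270) and Cdk19-/- by 2.58 (SE 0.24, adjusted p = 1.76e-06 in edgeR). The controls differed from each other as well, since C57BL/6 lay below VillinCreERT2 by a log2 value of -1.6 (adjusted p = 0.000161 in edgeR).

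**Figure D4:**
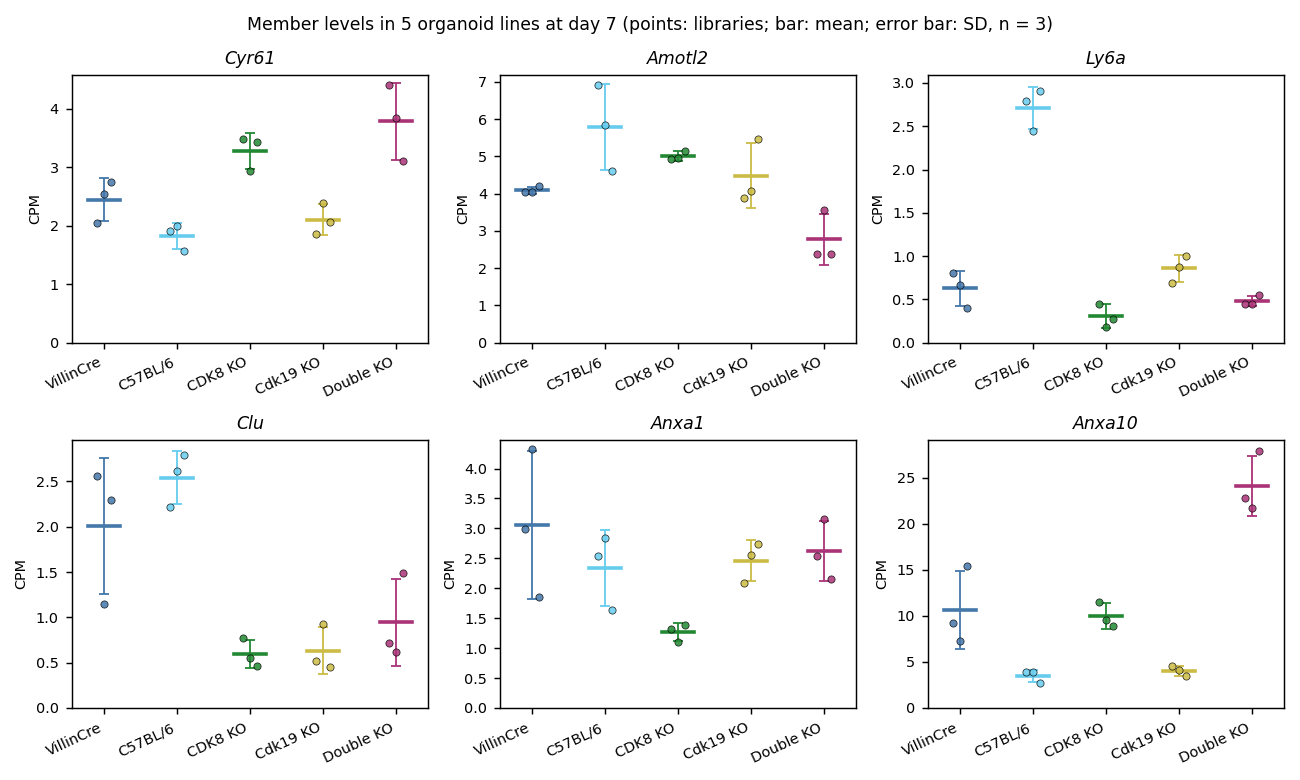
Levels of the 6 tested members in the 5 organoid lines at day 7, in CPM on a linear axis that starts at 0 and differs between panels, with 1 point per library, bars at the means and error bars for the SD of 3. Anxa10 is highest in CDK8 iIEC-KO/Cdk19-/- (21.7 to 27.8 CPM), and Ly6a is highest in C57BL/6 (2.44 to 2.91 CPM).

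Cyr61 was 2.04, 2.54 and 2.75 CPM in VillinCreERT2, 1.85, 2.39 and 2.07 CPM in Cdk19-/- and 4.41, 3.84 and 3.10 CPM in CDK8 iIEC-KO/Cdk19-/- organoids. The joint loss was higher by 0.63 than VillinCreERT2 (SE 0.18, adjusted p = 0.00391) and by 0.85 than Cdk19-/- (adjusted p = 0.000795 in edgeR), on the log2 scale, with no overlap. The first was under the 1.5-fold cutoff, at 0.51 in both cases, without VillinCreERT2 replicate 1 or without CDK8 iIEC-KO/Cdk19-/- replicate 1. CDK8 iIEC-KO organoids measured 3.48, 2.93 and 3.44 CPM and C57BL/6 organoids 1.90, 1.99 and 1.57 CPM, and neither difference from the control of its comparison was called. Amotl2 was lower in the joint loss than in Cdk19-/- by -0.70 (adjusted p = 0.00458 in edgeR), at 2.37, 3.56 and 2.38 CPM against 3.88, 4.07 and 5.48 CPM, and was not called without Cdk19-/- replicate 3 (-0.52, adjusted p = 0.0557). Against VillinCreERT2, at 4.03, 4.03 and 4.20 CPM, Amotl2 in the joint loss was called only without its replicate 2 (-0.78, adjusted p = 0.00256).

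Clu, Anxa1 and Ly6a were low in these lines. Clu was 2.56, 1.15 and 2.30 CPM in VillinCreERT2, 0.769, 0.549 and 0.464 CPM in CDK8 iIEC-KO and 0.717, 0.621 and 1.49 CPM in CDK8 iIEC-KO/Cdk19-/- organoids. The difference from VillinCreERT2 was -1.74 for CDK8 iIEC-KO (SE 0.33, adjusted p = 0.000268) and -1.08 for the joint loss (adjusted p = 0.00596 in edgeR), the latter with 1 overlapping library. In C57BL/6, Clu was 2.22, 2.61 and 2.79 CPM, and in Cdk19-/- 0.521, 0.931 and 0.447 CPM, a log2 difference of -2.00 (adjusted p = 0.000142 in edgeR). Anxa1 fell by 1.27 in CDK8 iIEC-KO (SE 0.26, adjusted p = 0.000619 in edgeR), from 2.99, 4.32 and 1.85 CPM to 1.31, 1.10 and 1.39 CPM, while the joint loss measured 2.54, 3.16 and 2.16 CPM. Ly6a differed most between the controls, with 0.807, 0.672 and 0.400 CPM in VillinCreERT2 and 2.79, 2.44 and 2.91 CPM in C57BL/6, a log2 difference of 2.10 (adjusted p = 1.83e-07 in edgeR). Cdk19-/- organoids, at 0.695, 0.873 and 1.01 CPM, lay below C57BL/6 by -1.65 (adjusted p = 4.43e-05 in edgeR) and within the range set by the controls. CDK8 iIEC-KO organoids, at 0.452, 0.183 and 0.279 CPM, differed from VillinCreERT2 by -1.03 (adjusted p = 0.0420 in edgeR) with overlapping libraries. That call was lost without VillinCreERT2 replicate 1 or 2 (-0.80 and -0.98) and without CDK8 iIEC-KO replicate 2 or 3 (-0.77 and -0.97). It was also lost in DESeq2 (adjusted p = 0.0800) and with no filter on low counts (adjusted p = 0.0874). The joint-loss line here held 0.48 CPM of Ly6a on average and the time course line 17.4 CPM at day 7 with 4-OHT, levels from separate tables that were not tested.

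Counted per comparison, of 6 members tested 3 were called in CDK8 iIEC-KO against VillinCreERT2, against 7.23% of all genes, 2 in Cdk19-/- against C57BL/6 (5.25%), 3 in the joint loss against VillinCreERT2 (19.4%), 3 in the joint loss against Cdk19-/- (10.6%) and 2 between the controls (26.4%). CDK8 iIEC-KO and the joint loss share the VillinCreERT2 libraries, and the joint loss serves in 2 comparisons. The 9 mesenchyme markers summed to 6.38 to 6.85 CPM in VillinCreERT2, 7.00 to 8.54 CPM in CDK8 iIEC-KO, 10.3 to 11.7 CPM in Cdk19-/-, 10.3 to 11.0 CPM in C57BL/6 and at most 5.42 CPM in the joint loss. Both tested markers were called lower in the joint loss than in Cdk19-/-, Vim at -1.25 and Pdgfrb at -0.94, and the part of this in these counts was not tested. Psca and Ctgf were not tested, with 0 to 22 counts of Psca and 0 to 8 of Ctgf per library. Among other genes, 4 of 11 fetal-like genes were lower in CDK8 iIEC-KO and 0 higher, with S100a6 at -1.56 and Sprr1a at -1.46. In the joint loss against VillinCreERT2, 4 were lower and 1 higher, with Sprr1a at -2.09 and S100a6 at -1.58 against Il33 at 1.28. Of 9 YAP targets 1 was higher and 1 lower there, Arhgef17 (1.02) and Asap1 (-0.61), and of 17 Hippo genes 1 was higher, Wwtr1, which encodes TAZ, at 0.74, and 3 lower, with Tead1 at -0.69, list shares near the 19.4% of all genes. Against Cdk19-/- the same line had 3 fetal-like genes higher and 2 lower of 11, with Il33 at 1.15 and Il1rn at -1.52, and 3 of 9 YAP targets higher and 0 lower, with Myof at 1.35. The controls differed in these lists as well. C57BL/6 against VillinCreERT2 had 3 fetal-like genes lower and 0 higher, with Sprr1a at -2.34 and S100a6 at -1.57, and 5 YAP targets lower and 1 higher, with Myof at -4.12 and Arhgef17 at 1.70.

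In IECs the spread within groups was wide. Clu measured 0.878, 72.5 and 5.78 CPM in VillinCreERT2 mice and 108, 43.3 and 44.7 CPM in mice without both kinases. The 9 mesenchyme markers summed to 13.9, 899 and 57.2 CPM and to 991, 613 and 468 CPM in the same order. The control with the most mesenchymal RNA, replicate 2, was also the control with the most Clu. Anxa1 ran in the order of the mesenchyme sums within each group, with 0.110, 15.2 and 1.44 CPM in VillinCreERT2 and 31.5, 11.1 and 10.3 CPM in IECs without both kinases. Clu shared that order in VillinCreERT2 only. Immune markers summed to 76.5, 207 and 86.5 CPM against 363, 327 and 197 CPM, and endothelial markers to 2.25, 6.96 and 3.64 CPM against 18.3, 10.7 and 10.6 CPM. All 9 mesenchyme, 8 immune and 4 tested endothelial markers had positive differences and 0 were called, and their part in the members' values was not tested. The highest group level per exon length was that of Clu in both groups (7.68 and 19.0 RPKM).

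**Figure D5:**
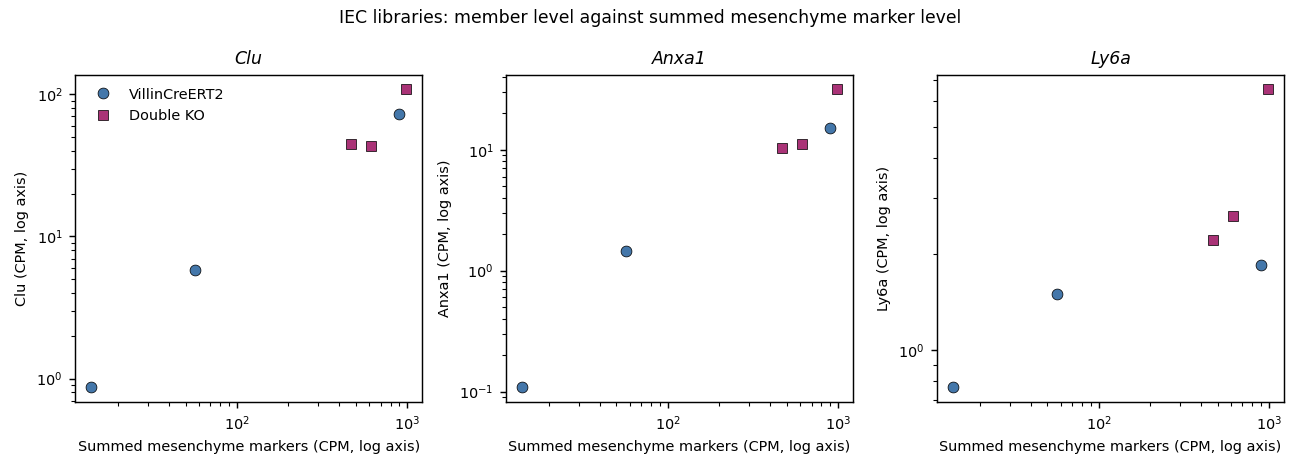
Levels of Clu, Anxa1 and Ly6a in the 6 IEC libraries, in CPM, against the summed CPM of the 9 mesenchyme markers, both on log axes, with 1 point per library. In VillinCreERT2 IECs, Clu runs from 0.878 CPM where mesenchyme markers sum to 13.9 CPM to 72.5 CPM where they sum to 899 CPM.

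None of the 6 members tested was called in IECs by edgeR, where 1.5% of all genes were, and 3 of the 6 had an unadjusted p under 0.05, against 19.9% of all genes. DESeq2 called 1, Amotl2. Anxa10 was 0.439, 0.978 and 0.214 CPM in VillinCreERT2 and 5.35, 1.11 and 1.28 CPM in IECs without both kinases, a log2 difference of 2.23 (SE 0.81, adjusted p = 0.204 in edgeR). Ly6a was 0.768, 1.85 and 1.5 CPM against 6.53, 2.62 and 2.21 CPM, a log2 difference of 1.46 (SE 0.52, adjusted p = 0.192 in edgeR). For both genes the groups did not overlap. Amotl2 was 12.9, 16.4 and 14.3 CPM against 9.47, 10.3 and 7.02 CPM, without overlap, a log2 difference of -0.71 (adjusted p = 0.112 in edgeR, 0.0223 in DESeq2). With no filter on low counts, edgeR called Amotl2 (adjusted p = 0.00693) and Ly6a (adjusted p = 0.0212). The log2 differences were 1.31 for Clu (SE 1.38, adjusted p = 0.628) and 1.66 for Anxa1 (SE 1.38, adjusted p = 0.535 in edgeR). Without VillinCreERT2 replicate 2, the control rich in mesenchymal RNA, Clu was called at 4.29 (adjusted p = 0.0427 in edgeR). Anxa1 then had 4.48 (adjusted p = 0.0531 in edgeR), and the count of genes called rose from 228 to 1566. The controls left held 13.9 and 57.2 CPM of mesenchyme markers, against 468 to 991 CPM in IECs without both kinases. Genotype and mesenchymal RNA therefore cannot be told apart in that fit. Cyr61 was 1.21, 2.34 and 1.07 CPM against 2.37, 1.66 and 0.687 CPM. Of 14 other fetal-like genes 13 and of 16 other YAP targets 11 had positive differences, as did 5 of 17 Hippo genes, against 50.7% of all genes, with 0 called in the 3 lists. More genes of the fetal-like and YAP lists were tested here than in organoids. All tested mesenchyme, immune and endothelial markers had positive differences in these libraries too, and their part in these counts was not tested.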

How the data were processed

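According to the labels, polyadenylated RNA was sequenced as 100 bp paired-end reads. The submitters' processing notes name STAR 2.5.2, Subread 1.6.3, featureCounts and the build mm10. The authors deposited raw counts, one whole number for each gene and library, with neither normalization nor a filter. Strandedness and the treatment of reads that match several genes are not given in the sources used here. Columns of a further IEC comparison were left out, because their letters could not be tied to the labels (6 columns not used).

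Genes were matched by symbol, and positions and exon lengths come from GENCODE vM21. The members and the 13 gene lists were chosen with earlier results of these data known. The organoid lines, time course, Wnt3-CM, Cdk19 D173A and IEC libraries were fitted separately with edgeR 4.0.16 in R 4.3.3 (filterByExpr, TMM, robust quasi-likelihood F test), and responses across tables in joint fits. Calls needed an adjusted p under 0.05 over all genes and a fold change over 1.5. CPM uses TMM-scaled library sizes. A standard error was taken as the size of the log2 difference over the square root of its F value. RPKM divides CPM by exon length. The text gives all members and, from each list, the up to 4 called genes with the smallest adjusted p. Levels of 3 counts or fewer per library in a group allow no fold.

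Alternatives were DESeq2 1.42.0 with its size factors, upper quartile scaling, keeping all genes with a count, a minimum of 10 counts per library, a block for the replicate number (for the Wnt3-CM and D173A libraries the number in the column name, added after seeing the data), fits of only the 2 groups at issue, and each library left out in turn. The edgeR fits, and DESeq2 for Wnt3-CM, were also run on simulated counts with known changes, and the outcome is not given here. Total counts per library set the precision of low values.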

Additional observations from a re-analysis of the deposited data

Results flagged for a closer look

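The flagged results are members whose response to 4-OHT differed between days, media or lines by a test of the difference itself, with edgeR's adjusted p over all genes. No explanation was weighed. Between day 3 and day 5 the log2 response changed by -1.14 for Cyr61, -1.45 for Ly6a, -1.92 for Anxa1 and 2.17 for Clu. Between day 5 and day 7 that of Clu changed by -3.10, and between day 7 and day 10 by 1.34, so its response was below, above, below and below the EtOH organoids at the 4 days. The Ly6a response changed by -1.79 between day 7 and day 10, from a positive to a negative difference. The day 10 response in Wnt3-CM differed from that in standard medium, where medium and table cannot be told apart, by -0.71 for Amotl2, -1.90 for Ly6a, -0.80 for Clu, -1.11 for Anxa1 and -1.78 for Anxa10, and Anxa10 was higher with 4-OHT in standard medium and lower in Wnt3-CM. The Cdk19 D173A organoids differed from the line without CDK19 by 1.86 for Clu, -1.85 for Anxa1 and 1.27 for Anxa10.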

How the results depend on the processing

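Of the single values under all alternatives, 912 kept direction and side of the threshold, 33 gained a call, 34 lost one and 1 turned. The last was Clu in the Cdk19 D173A organoids, 0.0054 without 4-OHT replicate 1 and -0.83 without 4-OHT replicate 3. Counts moved by over 1.5 times as follows, and the cause was not tested unless the setting itself tests fewer genes or samples. With at least 10 counts in every library, the calls were 476 genes and 0 members for Cdk19-/- against C57BL/6, 1 member for CDK8 iIEC-KO, 1 member between the controls, 1303 genes at day 5 and 1187 genes for EtOH day 5 against day 3. In IECs, no filter gave 1103 genes and 2 members, DESeq2 859 genes and 1 member, and the replicate block 8 genes. For EtOH day 7 against day 5, no filter gave 184 genes and DESeq2 139. With only the groups compared, the counts were 12 genes and 0 members there and 0 members for EtOH day 5 against day 3. With 1 library left out, the genes called ranged from 3 to 1566 in IECs and from 3 to 164 for EtOH day 7 against day 5. The members called ranged from 0 to 1 in IECs and for EtOH day 7 against day 5, from 0 to 2 for EtOH day 5 against day 3, from 1 to 4 at day 7, from 1 to 3 for the response of day 10 minus day 7, and from 2 to 4 between the controls. Equal replicate numbers did not pair the libraries, since the lowest correlation of their deviations was between -0.41 and 0.0951 over 15 comparisons, under the threshold of 0.1. As a hint from the data, every library was closest to its own number in 3 of the 15, Wnt3-CM among them. The replicate block moved no other count of calls by over 1.5 times. The Wnt3-CM and Cdk19 D173A columns end in numbers that could not be tied to single labelled samples. A replicate block on these numbers, chosen after seeing the data, kept the genes called within 1.5 times and gave 5 members in Wnt3-CM, 3 in the D173A organoids, 6 in the joint fit of the media, where Psca was added, and 4 in that of the D173A organoids and the line without CDK19, where Ly6a was added. The planned comparison of IECs with Cdk19 ko/D173A was not run. Depth limits Ankrd1 everywhere, Ctgf outside the time course and Wnt3-CM, and Psca in the lines and IECs.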

Other observations

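Across the 24 time course libraries, each member was set beside the 15447 genes tested, by Pearson's r of log2 CPM, as a description, since the libraries share days and treatments. Anxa1 was most like Anxa3 (0.943), another annexin, and Endod1 (0.917). Ly6a was most like Emp2 (0.970) and Cldn2 (0.960), a claudin of crypt cells. Cyr61 was most like Plaur (0.945), the urokinase receptor, and Adam8 (0.932). Clu was nearest to Rint1 (0.910) and Amotl2 to Ttc25 (0.899). For Psca, Anxa10 and Ctgf the 24 libraries include those of days 3 and 5, whose values chose these genes, so their nearest genes only restate that choice. With this limit, Anxa10 was nearest to Hpgds (0.925) and Capg (0.923), Psca to Nlrc4 (0.895), an inflammasome component, and Il33 (0.882), and Ctgf to Zbtb42 (0.884). Among the members not chosen by these values, Cyr61 and Ly6a had r = 0.820 and Cyr61 and Clu -0.601, each over 24 libraries.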
